A study of Homo sapiens with 6 samples.

Results

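The 9 genes described here encode enzymes of mitochondrial fatty acid beta-oxidation. They were taken by name (*CPT1A*, *CPT2*, *ACADVL*, *ACADM*, *ACADS*, *HADHA*, *HADHB*, *HADH* and *ETFDH*) from the symbol column of the deposited tables, and all 9 were found once each among the 31369 genes of the count table and the 30896 genes of the FPKM table. RNA-seq was done on HK-2 cells, a human line derived from the proximal tubule of the kidney, in 3 control samples (NC, genotype WT) and 3 samples transfected with a *PPM1K* plasmid (OE, genotype *PPM1K* overexpress). *PPM1K* encodes the mitochondrial phosphatase that switches on the branched-chain ketoacid dehydrogenase complex, and the comparison asks what its overexpression does to the transcriptome. All 6 samples carry the treatment label Chronic kidney disease and the time Day 10, and what the NC cells were transfected with is not given in the sources used here. The sample titles read shControl and shPPM1K, against the genotype labels. *PPM1K* itself had 37, 19 and 53 counts in NC replicates 1 to 3 and 3294, 3531 and 2919 counts in OE replicates 1 to 3, so its level followed the genotype labels. No label says that the replicates came from separate cultures, and p-values here measure the spread between these samples, which may be technical.

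In beta-oxidation, a fatty acid is first joined to coenzyme A and then handed to carnitine by CPT1 on the outer mitochondrial membrane, the step that malonyl-CoA inhibits and that limits the rate of the pathway. Inside, CPT2 gives the acyl group back to coenzyme A, and the acyl chain is shortened in a cycle of dehydrogenation, hydration, a further dehydrogenation and thiolysis, by enzymes that differ in the chain lengths they accept. The electrons of the first dehydrogenation pass through the electron transfer flavoprotein and ETFDH to ubiquinone. The proximal tubule is known for taking most of its energy from this pathway.

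Libraries held between 34635770 and 36116963 counts in NC and between 36033404 and 39850802 counts in OE. NC replicate 2 stood apart, with counts in 26478 genes against 22094 to 22913 in the other samples. In the authors' read distribution, the intronic, intergenic and antisense shares were each higher in every NC sample than in any OE sample. Each was highest in NC replicate 2, and their part in the results was not tested. Of the epithelial markers, 5 of 5 had a mean of at least 1 CPM (counts scaled to library size), as did 3 of 3 renal tubule lineage markers (summed CPM 296 to 304.5 in NC and 333 to 356 in OE). Only 2 of 10 proximal tubule markers did (*DPP4* and *MME*). The endocytic receptor gene *LRP2* had 1 count in all, and *SLC22A6* is not listed in the count table. The summed CPM of the epithelial markers was 3449 to 3735 in NC and 2681 to 2886 in OE. That of the proximal tubule markers was 86.05 to 91.2 in NC and 66.3 to 72.5 in OE. Most of this sum was *DPP4* (mean 73.7 CPM over all samples). *MME* went the other way, with 90, 106 and 103 counts in NC replicates 1 to 3 and 134, 169 and 122 in OE. The summed CPM of 3 endothelial markers, all at 1 CPM or more, was 4.81 to 6.23 in NC and 6.60 to 7.85 in OE. The part of these shifts in the results was not tested. Markers of the loop of Henle, distal tubule and collecting duct, of podocytes and of leukocytes summed to at most 0.452 CPM in any sample, and those of fibroblasts and smooth muscle to 0.720 to 1.36 CPM in NC and 0.719 to 2.11 CPM in OE.

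Of the 9 beta-oxidation genes, *CPT1A* rose in OE and *CPT2*, *ACADVL*, *HADH* and *ETFDH* fell. *CPT2* changed most, to 0.666 times its NC level, and no gene of the 9 changed by more than 2-fold. *ACADM*, *ACADS*, *HADHA* and *HADHB* did not pass the test. Each gene was tested with edgeR's quasi-likelihood test, with p-values adjusted by Benjamini-Hochberg over all 15878 tested genes, and all 9 passed edgeR's filter on low counts. The 5 of 9 genes with an adjusted p under 0.05 stand beside 48.6% of all tested genes, so the share is near the background. The single gene that rose stands beside 24.9% of tested genes that rose, and the 4 that fell beside 23.7% that fell. The 0 genes that also passed a fold change of 2 stand beside 5.51%. In CPM, the groups were fully apart for the same 5 genes, against 55.3% of all tested genes. The median log2 fold change of the 9 was -0.052, against -0.0032 over all tested genes. DESeq2 found 4 of the 9 past the same threshold, beside 40.4% of the genes it gave an adjusted p. Leaving out NC replicate 3 left 3, *CPT1A*, *CPT2* and *HADH*, beside 42.1% of the genes tested in that fit. With 3 samples against 3, an exact permutation test of a single gene cannot go below p = 0.1.

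**Figure D1:**
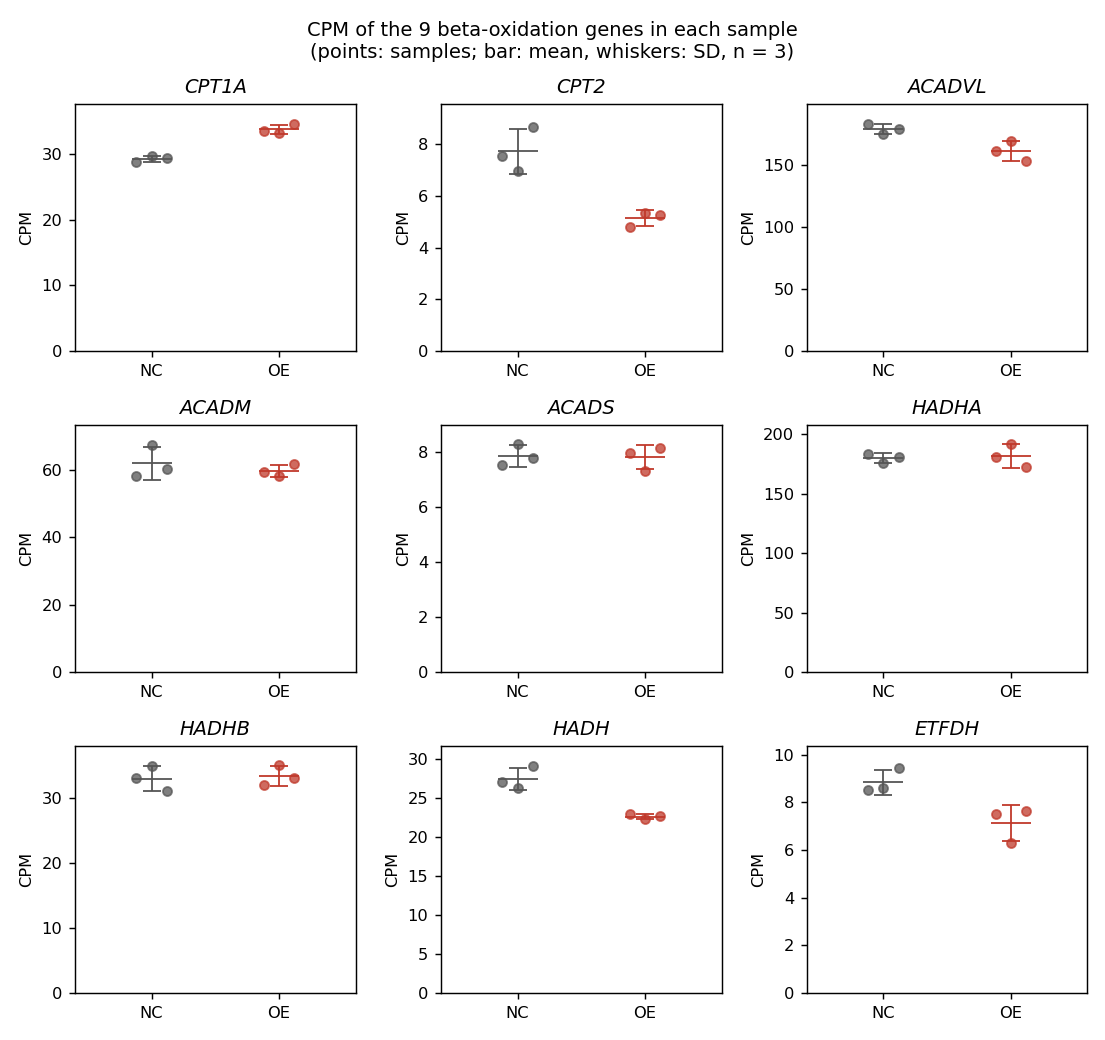
CPM of each of the 9 genes in the 3 NC and 3 OE samples, each panel with its own axis from 0. Points are samples, and bars and whiskers give mean and SD (n = 3). The groups are apart for CPT1A, CPT2, ACADVL, HADH and ETFDH and overlap for the other 4.

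**Figure D2:**
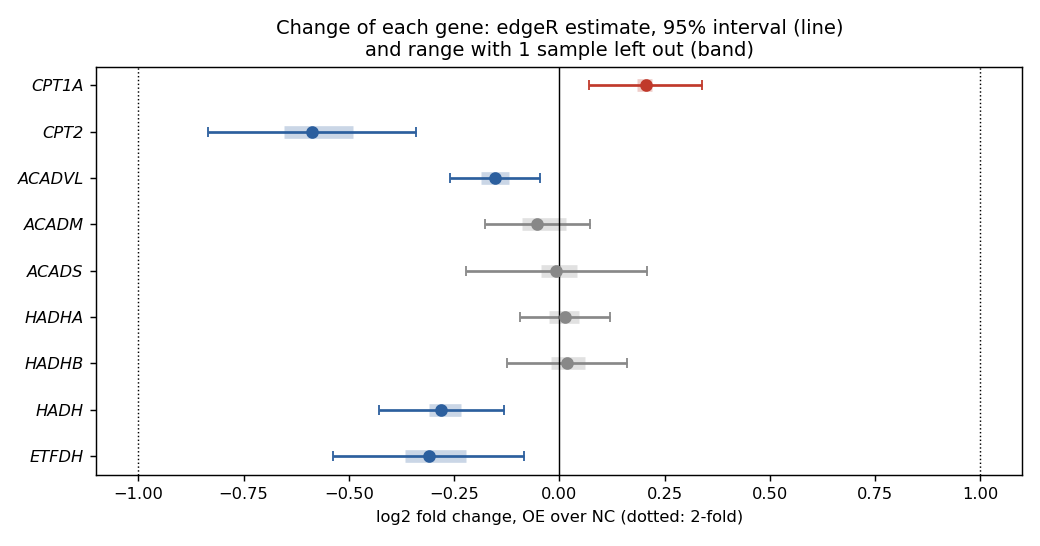
Log2 fold change of OE over NC for each gene (points), with its 95% interval (lines) and the range of the estimate when each of the 6 samples is left out in turn (bands). Red marks higher and blue lower at an adjusted p under 0.05, and dotted lines mark a 2-fold change, which no interval reaches.

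The carnitine shuttle has 2 of the genes, and they moved in opposite directions. *CPT1A* (ENSG00000110090.13, chromosome 11, 68754620 to 68844410, minus strand in GENCODE release 44 on GRCh38) encodes the form of the gatekeeping transferase found in liver and kidney. Its CPM was 28.8, 29.7 and 29.4 in NC replicates 1 to 3 and 33.5, 33.2 and 34.6 in OE replicates 1 to 3. Every OE sample was above every NC sample, with little spread in either group. The mean was 29.3 ± 0.472 in NC and 33.8 ± 0.722 in OE (SD, n = 3 each), with a log2 fold change at 0.20 (standard error, SE, 0.06, adjusted p = 0.0125), which is 1.15-fold. *CPT2* (ENSG00000157184.7, chromosome 1, 53196792 to 53214197, plus strand), the transferase of the inner membrane, is a gene with few reads. It had 263, 245 and 312 counts in NC replicates 1 to 3 and 177, 212 and 192 in OE replicates 1 to 3. Its CPM was 7.56, 6.96 and 8.68 in NC and 4.79, 5.36 and 5.29 in OE, in the same order. The lowest NC sample was above the highest OE sample. The log2 fold change was -0.59 (SE 0.12, adjusted p = 0.000332), with a 95% interval of -0.83 to -0.34. With each sample left out in turn it stayed between -0.66 and -0.49. *CPT2* overlaps *CZIB* on the other strand by 99 exon bases, and *CZIB* rose (log2 fold change 0.47, adjusted p = 6.2e-05). The libraries were stranded, but whether the counting used strand is not given in the sources used here, so overlapping reads may be shared between such genes. *CPT1A* overlaps no other annotated gene.

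The windows listed for the start of *CPT1A* and of *CPT2* differ in base composition. Whether this bears on the change of either gene was not tested. Whether the windows are those of the main transcripts was not checked. Both are printed 5′ to 3′ on the gene's own strand from RefSeq's promoter table (GRCh38.p14), 250 bases before to 50 after the start site, with matches to the motifs searched in capitals.
CPT1A, chr11:68844228-68844527, minus strand: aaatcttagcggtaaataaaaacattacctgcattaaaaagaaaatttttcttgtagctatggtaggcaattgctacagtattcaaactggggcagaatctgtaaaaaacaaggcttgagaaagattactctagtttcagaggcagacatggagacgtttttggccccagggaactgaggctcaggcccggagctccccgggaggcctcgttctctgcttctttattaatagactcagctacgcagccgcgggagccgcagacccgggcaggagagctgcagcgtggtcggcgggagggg
CPT2, chr1:53196574-53196873, plus strand: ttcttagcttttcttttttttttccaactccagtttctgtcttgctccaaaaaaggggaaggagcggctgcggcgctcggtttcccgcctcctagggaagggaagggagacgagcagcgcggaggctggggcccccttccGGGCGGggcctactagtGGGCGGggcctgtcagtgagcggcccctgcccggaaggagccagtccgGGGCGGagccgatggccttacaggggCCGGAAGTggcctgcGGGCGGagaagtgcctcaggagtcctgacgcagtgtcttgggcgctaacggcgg
The *CPT2* window is 65.0% G and C and holds 4 GC boxes (GGGCGG) and 1 ETS element (CCGGAAGT). The *CPT1A* window has a lower share of G and C than the median window of the table (58.7%) and holds no match to any motif searched. On either strand, a GC box is found in 45% of the 35116 promoter windows of the table and the ETS element in 4.14%. The table holds windows for 8 of the 9 genes, 10 windows in all, and none for *ETFDH*. Of the 8 genes, 7 have a GC box in a window, *CPT1A* being the exception. Counted by window, as for the whole table, it is found in 7 of the 10. The only GC box of *HADHA* is also 1 of the 2 of *HADHB*, in bases that their windows share, so this site is counted for both genes. *ACADM*, which did not pass the test, has 4 GC boxes in a window of 68.7% G and C. *ACADVL*, which fell, has a window of 52.7% G and C without a GC box and another of 65.7% with 2. *HADH* also has a CCAAT box (CCAAT, in 34.6% of all windows). None of the 10 windows holds a CRE (TGACGTCA, 1.85% of all windows), a C/EBP-ATF element (TGATGCAA, 0.866%), an E-box (CACGTG, 7.26%), the NRF1 core (TGCGCA, 8.24%), the nuclear receptor core (AGGTCA, 13.8%) or a DR1, in which that core is repeated after 1 base (0.0228%). These are matches of letters in short windows and say nothing of which factors bind.

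The ratio of *CPT1A* to *CPT2* put both changes together. In the deposited FPKM (fragments scaled to gene length and sequencing depth) it was 5.83, 6.52 and 5.23 in NC replicates 1 to 3 and 10.7, 9.46 and 9.98 in OE replicates 1 to 3. The 3 OE values lay above the 3 NC values. The mean rose from 5.86 ± 0.649 to 10.03 ± 0.601 (SD, n = 3 each), or 1.72-fold (exact two-sided permutation p = 0.1, the smallest this design allows, and 0.133 after adjustment over 4 ratios). In CPM per kilobase of the canonical transcript the mean ratio was lower, 1.97 in NC and 3.39 in OE. The other forms of CPT1 were less abundant. *CPT1B*, the muscle form, had 5.92 ± 0.452 CPM in NC and 5.82 ± 0.564 CPM in OE (SD, n = 3 each; log2 fold change -0.023, adjusted p = 0.891), and *CPT1C*, the brain form, had at most 5 counts in any sample and was not tested.

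The acyl-CoA dehydrogenases open each turn of the cycle, and *ACADVL*, *ACADM* and *ACADS* act on very long, medium and short chains. *ACADVL* (ENSG00000072778.20, chromosome 17, 7217125 to 7225266, plus strand) was the only one of the 3 to pass the test. Its CPM was 183, 175 and 179 in NC replicates 1 to 3 and 161, 169 and 153 in OE replicates 1 to 3. The groups did not overlap, but the highest OE sample was close to the lowest NC sample. The log2 fold change was -0.15 (SE 0.05, adjusted p = 0.0169), a fall by 10.1% as estimated. The call was lost without NC replicate 1 (log2 fold change -0.13, adjusted p = 0.0851) and without NC replicate 3 (-0.15, adjusted p = 0.0598), and not in the other fits with 1 sample left out. *ACADVL* overlaps *DLG4* on the other strand by 49 exon bases, and *DLG4* rose (log2 fold change 0.26, adjusted p = 0.0213). *ACADM* (ENSG00000117054.15, chromosome 1, 75724431 to 75787575, plus strand) had a CPM of 58.2, 67.5 and 60.1 in NC and 59.4, 58.2 and 61.6 in OE, in replicate order. Only NC replicate 2 stood out, on the high side. The log2 fold change was -0.052 (95% interval -0.18 to 0.07, adjusted p = 0.494) and 0.016 without NC replicate 2. *ACADM* shares 157 exon bases with *RABGGTB* on the same strand, which rose (log2 fold change 0.42, adjusted p = 6.5e-06). *ACADS* (ENSG00000122971.9, chromosome 12, 120725774 to 120740008, plus strand) had a CPM of 7.53, 8.30 and 7.79 in NC and 7.99, 7.33 and 8.18 in OE. Its samples were mixed between the groups, with a log2 fold change of -0.0079 and a 95% interval of -0.22 to 0.21 (adjusted p = 0.957).

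The trifunctional protein, which carries out the last steps of the cycle for long chains on the inner membrane, is built of equal numbers of an alpha subunit (hydratase and hydroxyacyl dehydrogenase) and a beta subunit (thiolase). *HADHA* (ENSG00000084754.12, chromosome 2, 26190635 to 26244672, minus strand) encodes the alpha and *HADHB* (ENSG00000138029.14, chromosome 2, 26243170 to 26290465, plus strand) the beta subunit, and the genes lie head to head. In RefSeq their start sites, 26244632 and 26244939, are 307 bases apart, so that the promoter windows of both genes share 194 bases. The *HADHB* window is printed for this shared stretch, which is in capitals.
HADHB, chr2:26244689-26244988, plus strand: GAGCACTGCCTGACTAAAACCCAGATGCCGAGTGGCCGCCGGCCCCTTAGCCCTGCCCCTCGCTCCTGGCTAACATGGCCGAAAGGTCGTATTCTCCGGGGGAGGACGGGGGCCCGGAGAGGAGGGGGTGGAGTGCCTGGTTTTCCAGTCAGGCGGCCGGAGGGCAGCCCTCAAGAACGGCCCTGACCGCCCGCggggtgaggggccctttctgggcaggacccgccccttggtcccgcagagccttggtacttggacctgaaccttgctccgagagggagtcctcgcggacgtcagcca
The window is 68.0% G and C, and that of *HADHA* 67.7%, where the median of all windows is 58.7%. *HADHA* had a CPM of 183, 176 and 181 in NC replicates 1 to 3 and 181, 192 and 172 in OE replicates 1 to 3. *HADHB* had a CPM of 33.1, 34.9 and 31.0 in NC and 32.1, 35.1 and 33.1 in OE. The groups overlapped for both genes. The log2 fold change was 0.014 for *HADHA* (95% interval -0.09 to 0.12, adjusted p = 0.842) and 0.018 for *HADHB* (95% interval -0.12 to 0.16, adjusted p = 0.85). Changes of more than these bounds are outside the intervals, and the estimates turned negative under upper quartile normalization. Counts of the alpha subunit exceeded those of the beta subunit in every sample. The ratio of their FPKM was 5.47, 4.97 and 5.77 in NC and 5.58, 5.40 and 5.15 in OE. The mean ratio was 5.40 ± 0.407 in NC and 5.38 ± 0.214 in OE (SD, n = 3 each; exact two-sided permutation p = 1). In CPM per kilobase of the canonical transcript it was 3.71 in NC and 3.69 in OE.

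**Figure D3:**
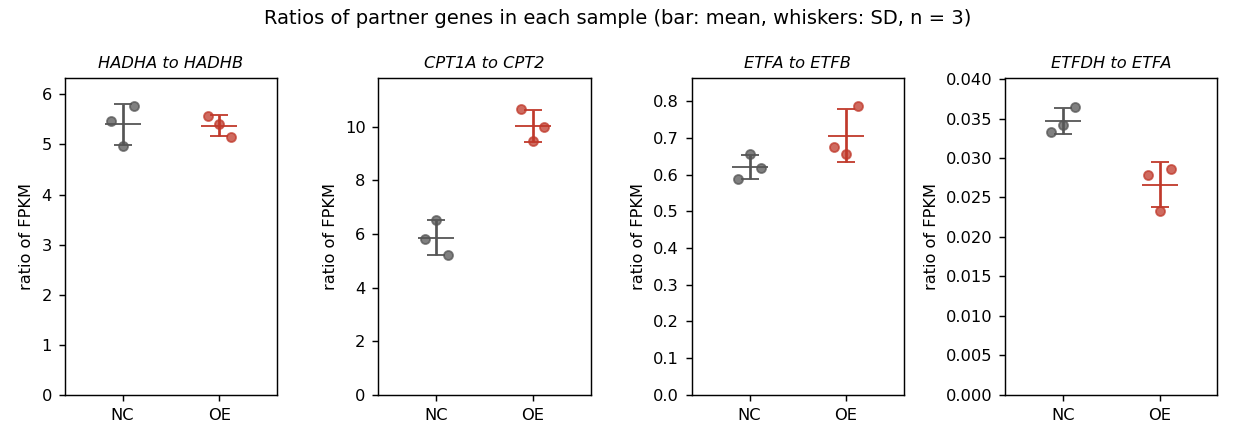
Ratio of FPKM between partner genes in each NC and OE sample, each panel with its own axis from 0. Points are samples, and bars and whiskers give mean and SD (n = 3). CPT1A to CPT2 and ETFA to ETFB are higher and ETFDH to ETFA lower in all OE samples, and HADHA to HADHB overlaps between the groups.

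*HADH* (ENSG00000138796.18, chromosome 4, 107989714 to 108035241, plus strand) encodes the soluble matrix 3-hydroxyacyl-CoA dehydrogenase, which takes shorter chains than the trifunctional protein. Its CPM was 27.0, 26.3 and 29.0 in NC replicates 1 to 3 and 22.9, 22.3 and 22.6 in OE replicates 1 to 3. The OE samples were tightly grouped below all NC samples. The mean fell from 27.5 ± 1.42 to 22.6 ± 0.305 (SD, n = 3 each), a log2 fold change of -0.28 (SE 0.07, adjusted p = 0.00273), and -0.31 to -0.23 with each sample left out in turn. *ETFDH* (ENSG00000171503.13, chromosome 4, 158671968 to 158710742, plus strand) encodes the ubiquinone oxidoreductase that takes the electrons of all acyl-CoA dehydrogenases. It had 296, 302 and 340 counts in NC and 277, 248 and 278 counts in OE, in replicate order. Its CPM was 8.51, 8.58 and 9.46 in NC and 7.50, 6.27 and 7.65 in OE. NC replicate 3 was the highest and OE replicate 2 the lowest, and the groups did not overlap. The log2 fold change was -0.31 (SE 0.11, adjusted p = 0.0224). Without NC replicate 3 it was -0.26 (adjusted p = 0.11) and without OE replicate 2 -0.22 (adjusted p = 0.13), so either sample decided the call, and DESeq2 did not make it (adjusted p = 0.0632). *ETFDH* shares 1427 exon bases, 5.98% of its annotated exons, with *PPID* on the other strand. *PPID* did not pass the test (log2 fold change 0.12, adjusted p = 0.0525). It shares a further 259 exon bases with *C4orf46*, also on the other strand, which rose (log2 fold change 0.41, adjusted p = 0.000252).

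The partners of ETFDH, the subunits of the electron transfer flavoprotein, did not pass the test. The log2 fold change was 0.07 for *ETFA* (adjusted p = 0.289) and -0.11 for *ETFB* (adjusted p = 0.197). The ratio of *ETFDH* to *ETFA* in FPKM was 0.0333, 0.0342 and 0.0365 in NC replicates 1 to 3 and 0.0278, 0.0233 and 0.0286 in OE replicates 1 to 3. Every OE value was below every NC value, a 0.765-fold change (exact two-sided permutation p = 0.1, adjusted over 4 ratios 0.133). In CPM per kilobase of the canonical transcript the mean ratio was higher, 0.120 in NC and 0.0927 in OE. The ratio of *ETFA* to *ETFB* in FPKM was 0.589 to 0.656 in NC and 0.656 to 0.788 in OE. Its lowest OE value barely exceeded its highest NC value (exact permutation p = 0.1, adjusted 0.133).

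The level of the 9 genes spanned 2 orders of magnitude in FPKM, and the order depended on the length used. In NC, FPKM ran from 38.3 ± 1.33 for *HADHA* and 34.2 ± 1.20 for *ACADVL* through *HADHB* (7.11 ± 0.370), *ACADM* (4.14 ± 0.272), *CPT1A* (4.11 ± 0.0252), *ACADS* (2.78 ± 0.101), *HADH* (1.96 ± 0.115) and *CPT2* (0.707 ± 0.0802) to *ETFDH* (0.343 ± 0.0231, SD, n = 3 for each). Of neighbours in this order, only *ACADM* and *CPT1A* had overlapping ranges of mean ± SD. In OE *CPT1A* (4.80 ± 0.163) stood above *ACADM* (4.05 ± 0.156), and the other positions were as in NC. The length behind each FPKM, worked out from the counts, the total count and the FPKM, was 1.07 times the summed length of all annotated exons of the gene in GENCODE for each of the 9 genes, before rounding 1.066 to 1.072 times. This length covers every annotated exon of every transcript of the gene. For *ETFDH* it is 23865 bases, 7.67 times its canonical transcript of 3111 bases, for *HADH* 7.14 times, for *ACADM* 6.09 times and for *CPT2* 3.74 times. For *CPT1A* it is only 1.25 times and for *ACADS* 1.40 times. In CPM per kilobase of the canonical transcript, *ACADVL* came first in NC (81.9 ± 1.84), followed by *HADHA* (61.2 ± 1.36), *ACADM* (27.4 ± 2.16), *HADHB* (16.5 ± 0.972), *HADH* (15.2 ± 0.789), *CPT1A* (5.60 ± 0.0901), *ACADS* (4.23 ± 0.210), *CPT2* (2.86 ± 0.323) and *ETFDH* (2.84 ± 0.170). On this scale the neighbours *HADHB* and *HADH*, and *CPT2* and *ETFDH*, had overlapping ranges of mean ± SD. In NC, *ETFDH* was thus 2.06 times below *CPT2* in FPKM and level with it per kilobase of canonical transcript. In OE on the canonical scale, *ETFDH* (2.30 ± 0.243) was above *CPT2* (1.91 ± 0.114), and *HADHB* (16.7 ± 0.761) and *HADH* (12.5 ± 0.169) were apart by more than their SD. The length used as divisor cancels when NC and OE are compared within a gene. Whether the choice of exons counted affects that comparison was not tested.

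**Figure D4:**
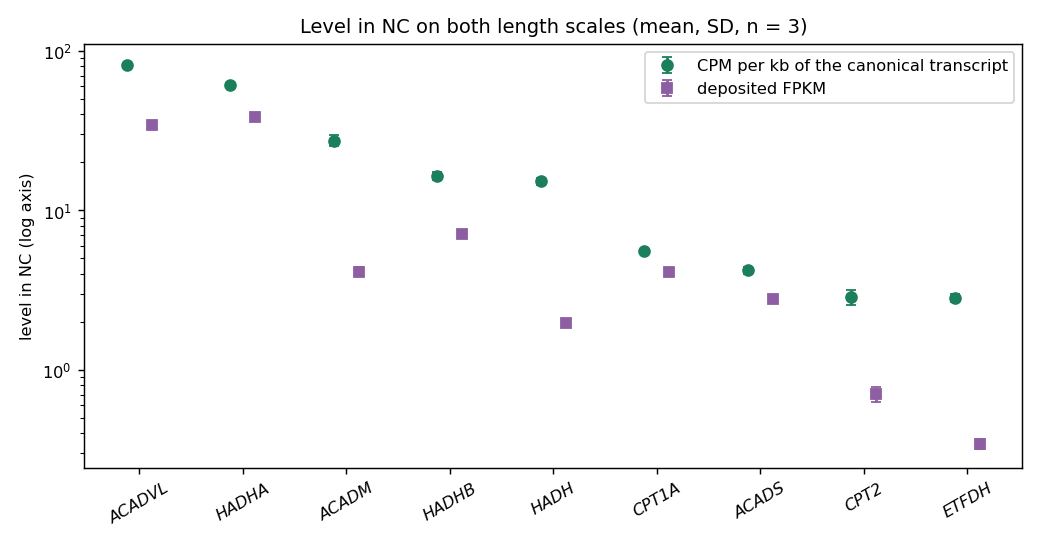
Level of each gene in NC on a log axis, as deposited FPKM (squares) and as CPM per kb of the canonical GENCODE transcript (circles), with SD (n = 3). The genes are ordered by the second scale. FPKM falls furthest below it for ETFDH, HADH and ACADM, whose annotated exons are longest relative to the canonical transcript.

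Around the 9 genes, 7 hand-written lists of fatty acid oxidation and related steps were counted in the same fit. Of 18 tested enzymes of mitochondrial oxidation outside the 9, 3 rose and 8 fell, with a median log2 fold change of -0.15. That is 61.1% past the test, against 48.6% of all tested genes (24.9% higher and 23.7% lower). The isomerases of unsaturated chains went opposite ways. *ECI1* rose from 62.2 ± 3.22 to 92.04 ± 6.31 CPM (log2 fold change 0.56, adjusted p = 1.0e-07) and *ECI2* fell from 54.3 ± 1.85 to 38.7 ± 1.66 CPM (log2 fold change -0.49, adjusted p = 6.8e-07; SD, n = 3). *PCCB*, a subunit of propionyl-CoA carboxylase, was another that rose (log2 fold change 0.28, adjusted p = 0.00134). *ACAD8*, *ACAD9*, *ACADSB*, *ACAT1*, *DECR1*, *ECHS1* and *MMUT* were the others that fell. The list is not confined to fatty acids. It also holds enzymes of branched-chain amino acid and propionate breakdown, such as *ACAD8*, *ACADSB*, *ACAT1*, *MMUT* and *PCCB*.

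The peroxisomal list had no gene that rose and 9 of 15 that fell, with a median of -0.32. The 60.0% past the test stand beside 48.6% of all tested genes, of which 23.7% fell. The thioesterase gene *ACOT8* was just outside the threshold on the high side (log2 fold change 0.21, adjusted p = 0.0536). *AMACR*, the racemase for branched chains, fell from 19.7 ± 0.945 to 9.51 ± 0.352 CPM (log2 fold change -1.05, adjusted p = 1.4e-09), and was past 2-fold. It shares 61.4% of its exon bases with the readthrough gene *C1QTNF3-AMACR*. *HSD17B4*, the bifunctional enzyme of the peroxisome and the most counted gene of the list, fell from 165 ± 4.85 to 126 ± 2.48 CPM (log2 fold change -0.39, adjusted p = 9.8e-07). *CAT*, the catalase that breaks down hydrogen peroxide, had -0.59 (adjusted p = 4.9e-05). With any 1 sample left out, 9 or 10 genes of the list passed the test in either direction.

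Uptake and activation of fatty acids had 3 genes that rose and 4 that fell of 12 tested, with a median of 0.06. These 58.3% are near the 48.6% of all tested genes. Among the acyl-CoA synthetases, *ACSL1* rose from 14.2 ± 1.38 to 19.2 ± 0.493 CPM (log2 fold change 0.44, adjusted p = 0.000176) and *ACSL4*, which favours arachidonate, fell from 100.3 ± 9.51 to 60.5 ± 3.20 CPM (log2 fold change -0.73, adjusted p = 6.6e-09). The fatty acid transporter *SLC27A1* fell by 0.60 on the log2 scale (adjusted p = 0.00251). *ACSL3* and *ACSL5* were among the 5 that did not pass. Without NC replicate 2, or without OE replicate 2, 4 genes of this list passed in place of 7. *CD36* had at most 3 counts in any sample.

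Of 11 tested genes of the carnitine system, 1 rose and 2 fell, or 27.3% against 48.6% of all tested genes, with a median of -0.14. *MLYCD*, which breaks down the CPT1 inhibitor malonyl-CoA, fell from 12.2 ± 0.542 to 7.93 ± 0.392 CPM (log2 fold change -0.62, adjusted p = 1.3e-05). *CRAT*, carnitine acetyltransferase, had -0.41 (adjusted p = 0.000152). *SLC22A4*, a transporter of ergothioneine and carnitine, rose from 1.50 to 2.92 CPM (log2 fold change 0.96, adjusted p = 0.000144). The acylcarnitine carrier *SLC25A20* (0.38, adjusted p = 0.103), the carnitine transporter *SLC22A5* (-0.21, adjusted p = 0.0601) and the enzymes that make malonyl-CoA, *ACACA* (-0.14, adjusted p = 0.109) and *ACACB* (-0.21, adjusted p = 0.219), did not pass. Without NC replicate 1, 5 genes passed in place of 3. In the list of the electron transfer flavoprotein, 1 of 6 genes rose, the mitochondrial carrier *SLC25A32* (log2 fold change 0.61, adjusted p = 2.0e-07). It shares 69.7% of its exon bases with ENSG00000285982, a gene on the same strand. None of the 6 fell, the list median was -0.02, and 16.7% past the test stand beside the same 48.6%.

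Of 16 tested regulators of the pathway, 7 rose and 1 fell, with a median of 0.11. The share past the test, 8 of 16 genes, is near the 48.6% of all tested genes. *PRKAA2*, a catalytic subunit of the kinase AMPK, had 0.76 (adjusted p = 2.8e-05), *NCOR1*, a corepressor of nuclear receptors, 0.44 (adjusted p = 4.8e-06) and *PPARG* 0.37 (adjusted p = 0.00168). *PPARA*, the receptor best known for driving beta-oxidation genes, was the regulator that fell, from 7.62 ± 0.961 to 6.24 ± 0.0376 CPM (log2 fold change -0.29, adjusted p = 0.0459). The related receptor gene *PPARD* rose, from 25.3 ± 0.775 to 29.7 ± 0.841 CPM (log2 fold change 0.23, adjusted p = 0.00773). The coactivator *PPARGC1A* had -0.12 (adjusted p = 0.283). This count was unstable, with 4 genes past the test without NC replicate 1 or without OE replicate 3 and 5 without NC replicate 3. Of 6 tested further targets of the PPAR receptors, 2 rose and 3 fell, or 83.3% of a short list against 48.6%, with a median of -0.30. *CPT1B*, the target that did not pass, is also counted in the carnitine list. *PDK4*, the kinase that shuts down pyruvate dehydrogenase, fell from 14.4 ± 0.126 to 6.85 ± 0.216 CPM (log2 fold change -1.07, adjusted p = 3.8e-09). The mitochondrial carrier genes *UCP2* (-0.57, adjusted p = 1.1e-06) and *UCP3* (-1.58, adjusted p = 8.5e-06) also fell, *UCP3* from only 2.54 to 0.844 CPM. *ANGPTL4* (0.39) and the lipid droplet gene *PLIN2* (0.18) rose.

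**Figure D5:**
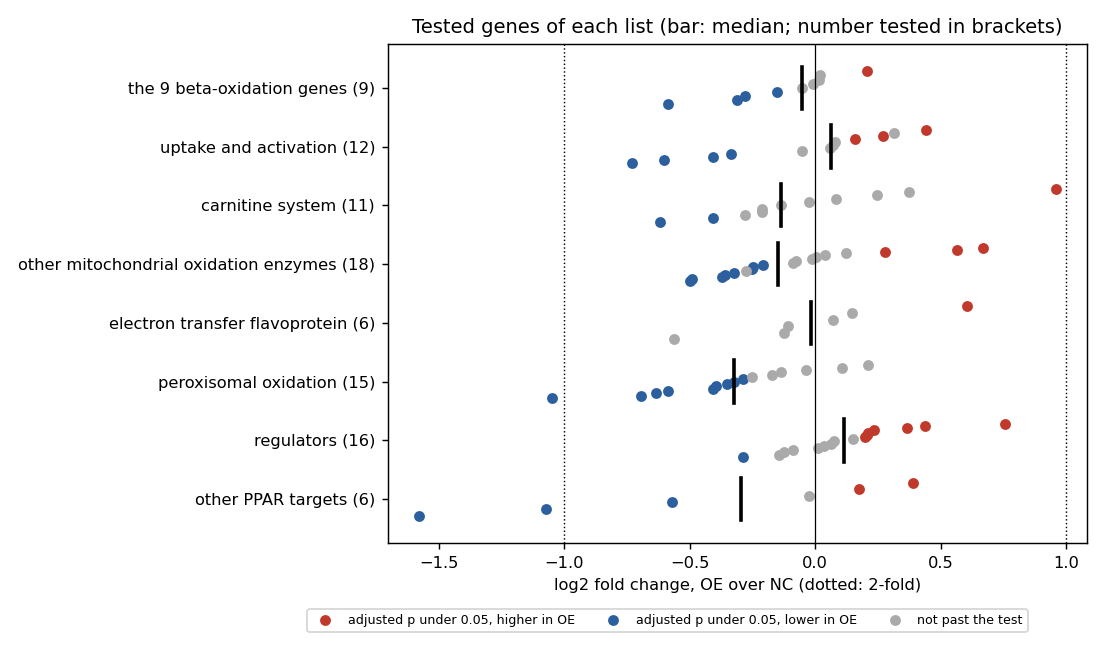
Log2 fold change of OE over NC for each tested gene of the 9 and of the 7 further lists, with the number tested in brackets, a black bar at the list median and dotted lines at 2-fold. Red points rose and blue points fell at an adjusted p under 0.05. The peroxisomal list has no red point, and its median is -0.32.

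Across the 6 samples, the genes whose log2 CPM followed *CPT1A* most closely among 11771 tested genes averaging 100 counts or more were *QTRT2*, *RCBTB1* and *STAMBP*, with Pearson's r of 0.999 for each. Those closest to *ETFDH* were *VSTM4* (0.998), *ZSCAN29* (0.992) and *GDNF* (0.992). For *HADHA* they were CTC-479C5.12 (0.991), *POLR2G* (0.981) and *SCAMP2* (0.979). These values rest on 6 points that share groups and libraries and are a description only.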

How the data were processed

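RNA from 6 samples of HK-2 cells (3 NC, 3 OE) was sequenced in pairs from stranded mRNA libraries. The authors trimmed reads with FASTX-Toolkit, aligned them to GRCh38 with HISAT2 and deposited the counts of uniquely mapped reads per gene, without normalization, and FPKM computed from them. The annotation and counting program are not given in the sources used here. Relative to the counts, the deposited FPKM of NC replicate 2 was scaled lower (0.963 of the average over samples for well-counted genes, against 0.999 to 1.016 in the others). GENCODE release 44 held 99.8% of the identifiers.

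The counts were tested with edgeR 4.0.16 in R 4.3.3 (filterByExpr, TMM, glmQLFit and glmQLFTest, Benjamini-Hochberg over 15878 genes). The standard error is the absolute log2 fold change over the root of F, and 95% intervals used it and the degrees of freedom of the test. CPM are TMM-scaled. DESeq2 1.42.0 and limma 3.58.1 on log2(FPKM + 1) and log2(FPKM + 0.1), keeping genes at 0.1 FPKM or more in 3 samples, were alternatives, beside other normalizations, no filter, a replicate block and each sample left out. The scripts were tested on simulated data. Ratios of FPKM were compared with exact permutation tests. Where 2 samples remained in a group, its spread was pooled with that of the other. Figures were drawn with matplotlib 3.10.9.

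The members and lists were chosen with earlier results of these data known. The genes named are the 9, the up to 3 genes of each list with the smallest adjusted p and any past 2-fold, PPM1K, the 3 genes closest to CPT1A, HADHA and ETFDH, and genes that overlap the 9. Other list genes given with values (ETFA, ETFB, CPT1B, CPT1C, CD36, PPARA, PPARD, PPARGC1A, ACSL3, ACSL5, SLC25A20, SLC22A5, ACACA, ACACB, ANGPTL4, PLIN2, PCCB, ACOT8 and those named only as falling) were added after their values were seen. A few results that the rule would name are not reported here.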

Additional observations from a re-analysis of the deposited data

How the results depend on the processing

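The directions of *CPT1A*, *CPT2*, *ACADVL*, *HADH* and *ETFDH* held in every alternative fit, and the calls of *CPT1A*, *CPT2* and *HADH* held in each of them too. *ACADVL* missed the threshold with the replicate block (log2 fold change -0.15, adjusted p = 0.0576), in limma on either FPKM scale (-0.13 on both) and in 2 fits with a sample left out (range over the 6 of -0.19 to -0.12). *ETFDH* missed it in DESeq2 (-0.30) and limma (-0.070 with a pseudocount of 1 and -0.22 with 0.1), and in 2 fits with a sample left out (-0.37 to -0.22). limma thus left 3 of the 9 past the test on either scale, beside 39.7% and 39.6% of the genes it fitted. Leaving out single samples left 3 to 5 of the 9, beside 41.9% to 46.3% of the genes tested. The signs of genes that never passed were not fixed. *HADHA* was -0.024 and *HADHB* -0.020 with upper quartile normalization, *ACADS* was 0.0095 and 0.012 in limma, and with single samples left out *ACADM* ranged from -0.090 to 0.016, *ACADS* from -0.043 to 0.041, *HADHA* from -0.024 to 0.048, *HADHB* from -0.021 to 0.062 and the log2 difference of the *HADHA* to *HADHB* ratio from -0.065 to 0.044. All genes past the test and 2-fold numbered 875, but 125 and 568 in limma with a pseudocount of 1 and 0.1. For the uptake list the count of 7 became 3 in DESeq2, 4 with the block and 4 to 5 without single samples. The carnitine list had 5 in place of 3 with upper quartile normalization (3 to 5 without single samples) and the flavoprotein list 2 in place of 1. The 8 regulators became 5 with upper quartile normalization, 5 with the block and 5 in limma on either scale, and 4 to 7 without single samples. Why the counts moved was not tested. The fits that leave 1 out also have fewer samples. The replicate block changed no other call among the 9. The replicate numbers share only a label, since deviations of same-numbered samples correlated at -0.00319, -0.0663 and -0.0542. Counts of 177 to 340 for *CPT2*, *ACADS* and *ETFDH* limit what could be detected for these genes.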
